A study of Mus musculus with 24 samples.

Results

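RNA levels of 10 genes that encode the nuclear lamina and its partners in the inner nuclear membrane were measured in mouse embryonic stem cells. The genes were Lmna, Lmnb1, Lmnb2, Lbr, Sun1, Sun2, Lemd3, Lemd2, Tmpo and Banf1, picked by name and matched to the count table through their Ensembl identifiers in GENCODE M21, and they make up 10 of its 48985 gene rows. The cells were F121/9, a female line made by crossing 129/Sv and CAST/EiJ mice, whose F1 hybrid cells carry both genomes, grown with LIF and the inhibitors PD0325901 (1 µM, against MEK) and CHIR99021 (3 µM, against GSK-3β). The study compared cell clones in which a stretch of the genome had been recombined with the parental line of each recombination, to see how gene expression changed. The 24 libraries fell into 12 groups of 2 replicates: a parental line for each of the recombinations d3, d6, i7, i12 and i10, and 7 recombined clones, namely d3 clone 12, d3 clone 21, d6 clone 16, i7 clone 7, i7 clone 12, i12 clone 10 and i10 clone 18. All groups shared the hybrid genome and the inhibitors, and the labels do not expand the letters d and i. For d6, i12 and i10, each seen in 1 clone, an effect of the recombination and a trait of the clone cannot be told apart.

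The lamina is a filament mesh under the inner nuclear membrane, built from the A-type lamin of Lmna and the B-type lamins of Lmnb1 and Lmnb2, and it holds large stretches of silent chromatin at the edge of the nucleus. Lbr, Sun1, Sun2, Lemd2, Lemd3 and some forms of Tmpo encode membrane proteins that bind lamins or chromatin, and Banf1 encodes the small DNA-binding protein that LEM-domain proteins hold on to. The lamin B receptor is known as a tether of chromatin in early cells, while A-type lamin is low in embryonic stem cells and rises as they differentiate.

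Total counts per library ran from 3286819 to 15581094, and every count was assigned to the 129S1 or the CAST allele. Levels are given as CPM, the counts of both alleles scaled to the TMM-adjusted size of the library, unless an allele is named. How reads without a strain difference were treated is not given in the sources used here, so a level compared between genes may also carry the number of strain differences each gene holds. The summed level of 9 naive stem cell markers was 6462 to 8652 CPM in all libraries, and that of 7 fibroblast markers 3.93 to 25.7 CPM. All 10 genes passed the filter on low counts; the lowest count of any of them in a library was 29, for Lemd3.

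Of the 3 lamin genes, Lmnb1 (chromosome 18, 56707813 to 56753424, plus strand, GRCm38) was the most abundant. Per kilobase of exon it averaged 156 CPM (range 95.5 to 241 over 24 libraries), the highest of the 10 genes. Lmnb2 (chromosome 10, 80901203 to 80918245, minus strand) averaged 13.7 CPM per kilobase (8.81 to 21.6). Lmna (chromosome 3, 88480147 to 88509956, minus strand) averaged 5.27 CPM per kilobase (3.24 to 11.5). In every library Lmnb1 held most of the summed lamin level per kilobase, with a median share of 88.6% (83.3% to 92.7%). The median share of Lmna was 2.56%, and its 2 highest shares, 5.54% and 7.44%, were those of i7 clone 12. No other library exceeded 4.82%.

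Among the membrane proteins, Lbr (chromosome 1, 181815335 to 181843046, minus strand), the lamin B receptor, averaged 38.0 CPM per kilobase (29.5 to 50.2). Sun1 (chromosome 5, 139200637 to 139249840, plus strand) and Sun2 (chromosome 15, 79724070 to 79742536, minus strand) encode the inner-membrane side of the bridge between lamina and cytoskeleton. Sun1 averaged 36.2 CPM per kilobase (26.1 to 50.1), and Sun2 4.10 (1.97 to 6.01), so that no library's Sun2 value reached the lowest Sun1 value.

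Of the LEM-domain genes, Tmpo (chromosome 10, 91147571 to 91181315, minus strand), which encodes the lamina-associated polypeptide 2 family, averaged 13.3 CPM per kilobase (11.6 to 16.0). Lemd2 (chromosome 17, 27189600 to 27204469, minus strand) averaged 10.3 (6.29 to 20.4). Lemd3 (chromosome 10, 120923413 to 120979332, minus strand), the gene of MAN1, was the lowest of all at 2.14 CPM per kilobase (1.07 to 3.59). Banf1 (chromosome 19, 5364638 to 5367168, minus strand) averaged 38.6 (21.6 to 71.0). It overlaps Eif1ad on the plus strand, which had more counts than Banf1, and Lbr, Sun1, Sun2, Lemd3 and Lemd2 also overlap genes of the other strand, which had fewer counts than they did. Whether strand was used in counting is not given in the sources used here, so the counts of such neighbours may not be separate.

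In the order of levels per kilobase, Lmnb1 stood above Banf1 and Sun1 above Lmnb2 in all 24 libraries, with ranges that did not overlap. All other neighbours in the order had overlapping ranges. Banf1 exceeded Lbr in 14 of 24 libraries, Lbr exceeded Sun1 in 16, Lmnb2 exceeded Tmpo in 11, Tmpo exceeded Lemd2 in 18, Lemd2 exceeded Lmna in 22, Lmna exceeded Sun2 in 19 and Sun2 exceeded Lemd3 in 23. With the longest transcript as the length, Sun1 moved to the second place, Banf1 to the fourth, Tmpo to the fifth, Lemd2 to the sixth and Lmnb2 to the seventh, while the other 5 genes kept their places.

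**Figure D1:**
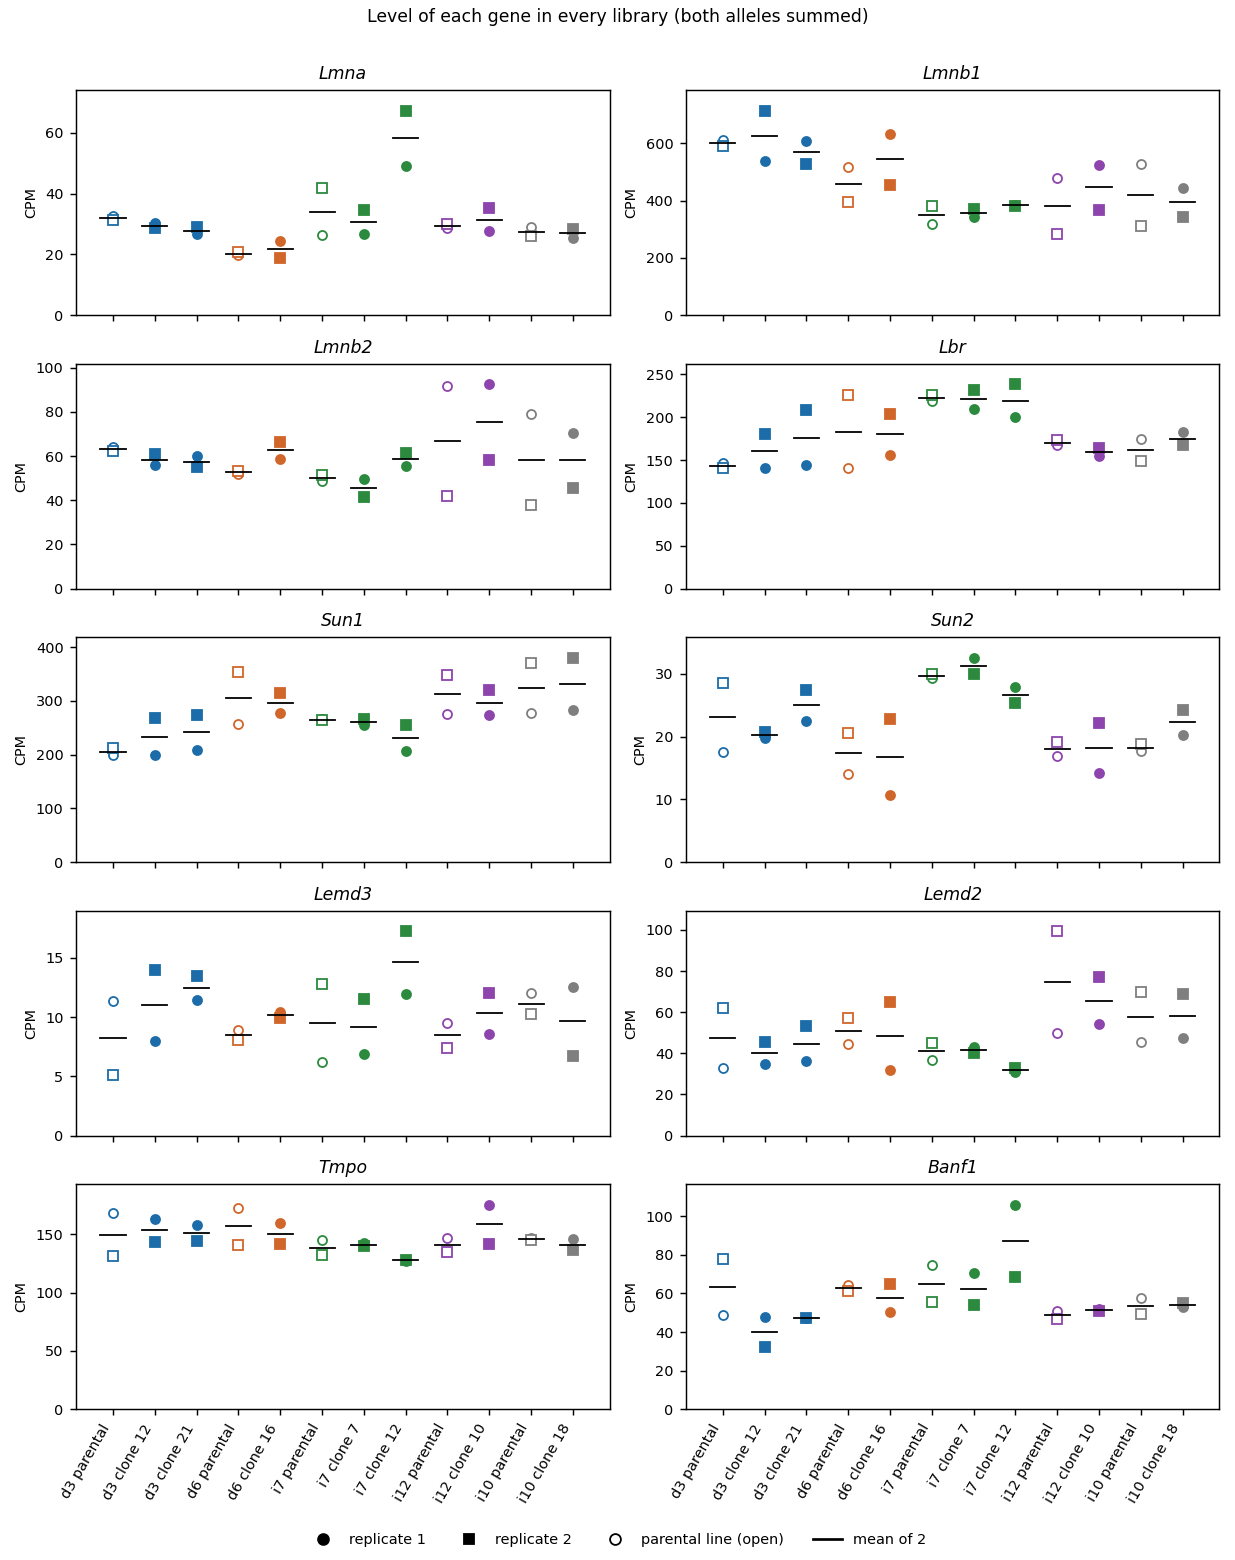
Each panel plots 1 gene, with the 12 groups on the x axis and CPM of both alleles on the y axis, which starts at 0; circles are replicate 1, squares replicate 2, open symbols parental lines and bars the mean of 2 libraries. Both Lmna values of i7 clone 12 (49.1 and 67.4 CPM) lie above all other Lmna values, and Lmnb2 and Lemd2 differ more between the 2 libraries of the i12 parental line than the i12 means do.

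The first comparison was that of each clone with its parental line, on total counts. None of the 10 genes passed the test in any of the 7 clones (edgeR's quasi-likelihood test, Benjamini-Hochberg adjusted p under 0.05, 70 tests). DESeq2 called 0 of them as well. Of all 16253 genes tested, 0.0246% were called in i7 clone 12 and 0.0554% in d3 clone 21. The share was 0.0123% in each of d3 clone 12 and d6 clone 16, and 0.0% in each of i7 clone 7, i12 clone 10 and i10 clone 18. Few genes of any kind were thus called in this fit, which has no term for the replicate number. With such a term 6.27% of all genes were called in i7 clone 12. At an unadjusted p under 0.05, 2 of the 70 tests passed, beside 2.3% of all tests pooled: Lmna in i7 clone 12 and Banf1 in d3 clone 12. The 70 log2 changes ran from -0.66 to 0.77, none reached a 2-fold change, and the median half-width of their 95% intervals was 0.57. A change smaller than the half-width of its own interval was not detectable. A call after adjustment over all genes took a larger change still, since the 2 that passed the unadjusted threshold were not called.

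Lmna was higher in i7 clone 12 than in any other library. It stood at 49.1 and 67.4 CPM in this clone, at 26.3 and 41.7 in its parental line and at 26.7 and 34.7 in clone 7, the other clone of i7. In d3 it was 32.5 and 31.2 CPM in the parental line, 30.2 and 28.8 in clone 12 and 26.8 and 28.9 in clone 21. For d6 the parental line gave 19.7 and 20.8 CPM and clone 16 gave 24.3 and 18.9, and these were the 4 lowest libraries. The i12 parental line had 28.8 and 29.8 CPM and its clone 27.7 and 35.1, and the i10 parental line had 29.0 and 25.99 and its clone 25.4 and 28.4. Both libraries of i7 clone 12 exceeded both parental libraries, while both d3 clones lay below both libraries of their parental line, and in d6, i12, i10 and i7 clone 7 the ranges overlapped.

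The log2 change of Lmna in i7 clone 12 against the parental line was 0.77 (SE 0.224, 1.71-fold), with an edgeR adjusted p of 0.373. Replicate 2 was above replicate 1 in all 3 lines of i7, and with a term for the replicate number the change was 0.79 (SE 0.144, 1.73-fold) with an adjusted p of 0.00398. With this term Lmna was the 1 gene of the 10 called, beside 6.27% of all genes in this comparison. That call was lost with the i7 parental replicate 1 left out (adjusted p = 0.169), with clone 12 replicate 1 left out (0.105) and with clone 12 replicate 2 left out (0.0573), and kept with parental replicate 2 left out (0.0348). Without the term, leaving out 1 library moved the log2 change between 0.48 and 1.17 and gave no call.

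Against the sister clone, i7 clone 7, the difference in Lmna was 0.92 on the log2 scale (SE 0.224, 1.90-fold, edgeR adjusted p = 0.142). This was the 1 test of the 10 with an unadjusted p under 0.05, and 0 of 10 were called where 0.0923% of all genes were. With the replicate term the difference was 0.92 (SE 0.144, adjusted p = 0.000831, 1 of 10 genes called beside 9.76% of all), and DESeq2 gave 0.93 (adjusted p = 0.0225). Leaving out i7 clone 7 replicate 2 ended the call with the replicate term (adjusted p = 0.0592). Against the parental line the 129S1 counts alone changed by 0.81 and the CAST counts alone by 0.75, neither called. The ratio of the alleles changed by 0.04 (SE 0.238).

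The summed levels of 5 marker lists were also higher in both libraries of i7 clone 12 than in the other libraries of i7. The summed level of 7 fibroblast markers was 25.1 and 25.7 CPM there and 14.8 to 17.2 in the other 4 libraries of i7. Nearly all of it was Thy1 (24.5 and 24.02 CPM against 13.4 to 15.6), Col1a1 was lower (1.26 and 1.06 against 1.33 to 1.68), and the other 5 of the 7 markers, Col1a2, Col3a1, Lum, Dcn and Postn, had no counts in i7 clone 12. Of 4 mesoderm markers the sum was 25.8 and 49.4 CPM against 10.5 to 13.5, mostly from T. Of 4 neural markers it was 95.5 and 106 against 64.8 to 74.6, and there Tubb3 was higher (45.3 and 42.7 against 12.5 to 20.3), Sox1 lower (0.193 and 0.379 against 0.920 to 1.96), while Nes overlapped (50.02 and 62.7 against 47.9 to 60.1). Primed epiblast markers summed to 72.3 and 96.3 CPM against 51.5 to 67.2, mostly from Dnmt3b, while Otx2 was lower (0.290 and 0.227 against 0.442 to 1.42). Primitive endoderm markers summed to 7.55 and 8.18 against 3.44 to 5.81. Of these, Dab2 was higher (2.32 and 3.94 against 0.237 to 1.45). Gata4 (4.45 and 3.33 against 1.78 to 3.43), Sox17, Sox7 and Pdgfra overlapped, and Gata6 had no counts in i7 clone 12. Over all 24 libraries, only the fibroblast sum of these 5 lists was highest in i7 clone 12. Libraries of other recombinations reached 242 CPM for primed epiblast, 141 for neural, 60.9 for mesoderm and 12.5 for primitive endoderm markers. In i7 clone 12 the 9 naive markers summed to 7915 and 8491 CPM, within the 7795 to 8652 of the other i7 libraries. The part of these markers in the Lmna values was not tested, and in bulk RNA more cells of a type and more RNA per cell cannot be told apart.

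Neither B-type lamin was called in any clone. In i7 clone 12, Lmnb1 stood at 387 and 383 CPM beside 317 and 382 in the parental line (log2 change 0.14, SE 0.279). Over the 7 clones the log2 change of Lmnb1 ran from -0.09 to 0.26, positive in 5, and that of Lmnb2 from -0.14 to 0.25, positive in 3. The widest 95% interval bounds were -0.69 and 0.84 for Lmnb1 and -0.84 and 0.94 for Lmnb2.

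For the membrane proteins the log2 changes over the 7 clones were -0.09 to 0.29 for Lbr, -0.20 to 0.23 for Sun1 and -0.18 to 0.29 for Sun2. Each was positive in 3 clones and negative in 4. Those of Tmpo, the steadiest of the genes, ran from -0.12 to 0.17, within interval bounds of -0.46 and 0.52.

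Lemd3 was positive in 5 clones, with 0.61 in i7 clone 12 (12.0 and 17.3 CPM beside 6.18 and 12.8 in the parental line), 0.59 in d3 clone 21 and 0.41 in d3 clone 12. Its standard errors were 0.419 or more, and parental and clone libraries overlapped in i7. Lemd2 was negative in 5 clones, down to -0.37 in i7 clone 12 (30.7 and 32.7 CPM beside 36.9 and 44.9), with an SE of 0.380, and there both clone libraries lay below both parental libraries. None of these changes was called with or without the replicate term.

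In d3 the parental line gave Banf1 at 48.6 and 77.8 CPM, clone 12 gave 47.7 and 32.3 and clone 21 gave 47.1 and 47.5. All 4 clone libraries lay below both parental libraries, 3 of them close to the lower one. The log2 change was -0.66 (SE 0.255, edgeR adjusted p = 0.996) in clone 12 and -0.42 (SE 0.254) in clone 21, neither called. In clone 12 it was -0.28 without parental replicate 2, -0.40 without clone 12 replicate 2 and -0.97 without replicate 1 of either group.

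**Figure D2:**
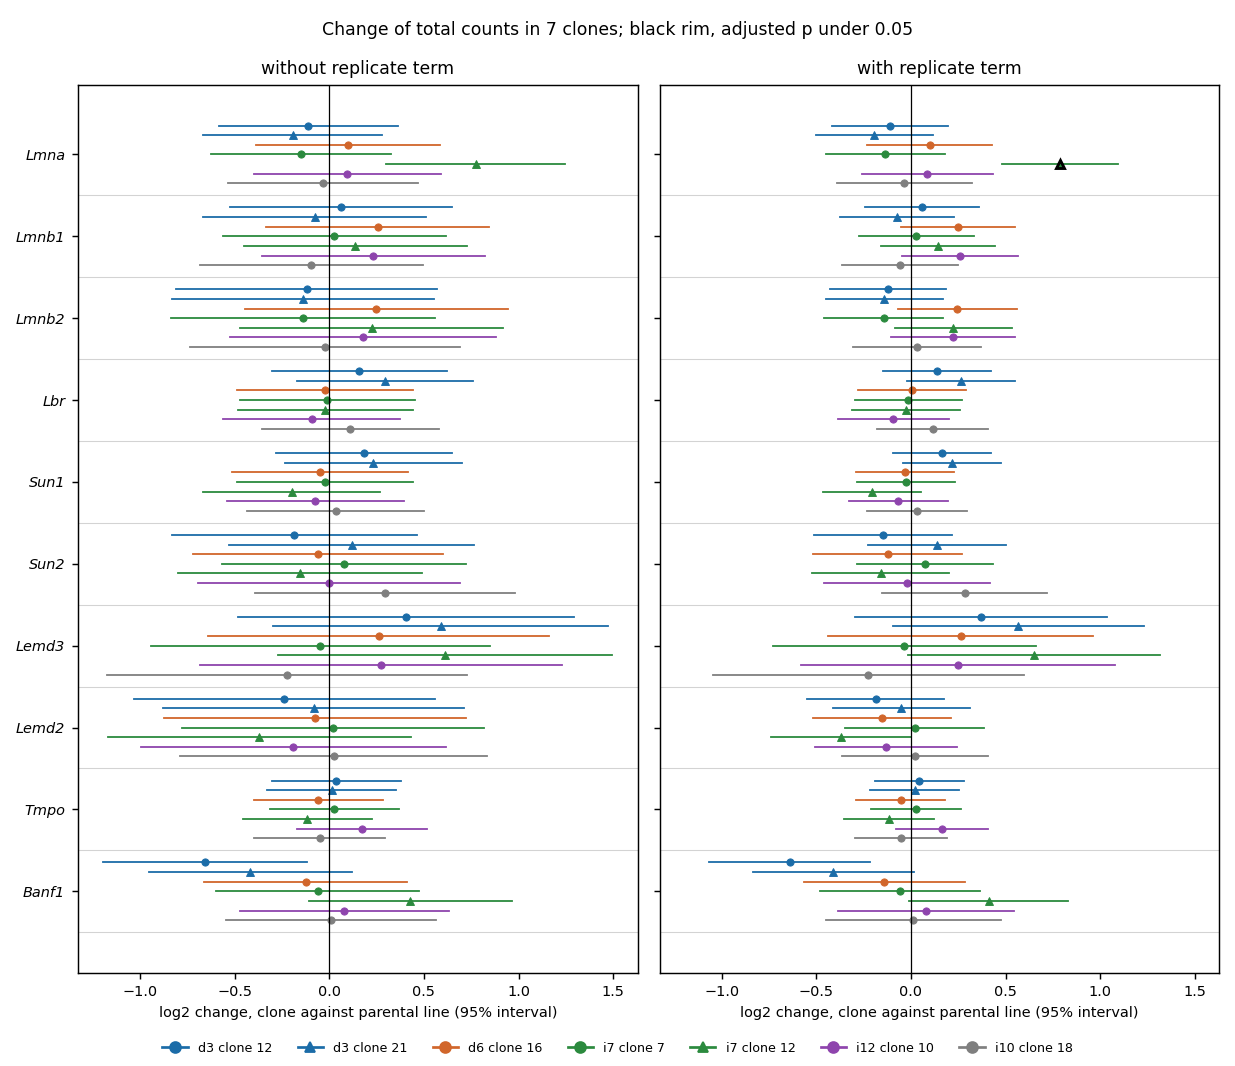
Points are log2 changes of total counts in each clone against its parental line and lines their 95% intervals, for the 10 genes (y axis) and 7 clones (colours and symbols), on the left without and on the right with a term for the replicate number. A black rim marks an adjusted p under 0.05, which only Lmna in i7 clone 12 has, at 0.79 with the term.

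Averaged over the 5 recombinations with equal weight, the log2 effect of the clones was positive for 8 of the 10 genes and lay between -0.12 (Lemd2) and 0.22 (Lemd3), with a median of 0.04. None of the 10 was called and none had an unadjusted p under 0.05, beside 0.0123% of all genes called (edgeR's quasi-likelihood test; DESeq2 also 0). Between the 2 clones of d3 none of the 10 passed the test, again with 0 at an unadjusted p under 0.05 and 0 by DESeq2, beside 0.0492% of all genes called. There the largest difference was 0.30 on the log2 scale, for Sun2 (SE 0.306).

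The parental lines were then compared with each other. Lmnb1 was higher in d3 (612 and 591 CPM) than in i7 (317 and 382). Lbr went the other way, with 147 and 140.5 CPM in d3 and 219 and 226 in i7. Sun1 was 198 and 212 CPM in d3 and 278 and 370.5 in i10, and Sun2 was 29.3 and 30.0 in i7 and 17.7 and 18.7 in i10. In each of these pairs the ranges did not overlap. They are examples picked from all genes and pairs of lines, and pairs without overlap were not counted. In a joint test of the 5 parental lines, 0 of the 10 genes were called (edgeR's quasi-likelihood test; smallest adjusted p 0.181, for Lmna; DESeq2 also 0), beside 6.64% of all genes. Lmna was the 1 gene with an unadjusted p under 0.05, beside 26.3% of all genes. With the replicate term within each recombination, 6 of the 10 were called (Lmna, Lmnb1, Lbr, Sun1, Sun2 and Lemd2), beside 50% of all genes. That term removes the difference between replicates inside a recombination, while the lines compared come from different recombinations, so its error leaves out part of the spread that this comparison holds.

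Several of the genes differed between the 2 libraries of a group, in one direction across many groups. Lmnb2 stood at 91.6 CPM in replicate 1 and 41.8 in replicate 2 of the i12 parental line, and at 92.6 and 58.0 in i12 clone 10. In i10 it was 79.0 and 37.8 CPM in the parental line and 70.4 and 45.6 in clone 18. Outside i12 and i10 its libraries differed by a log2 ratio of -0.26 to 0.17. Lmnb1 was likewise lower in replicate 2 in both groups of i12 (478 and 283 CPM; 526 and 369) and in both of i10 (529 and 312; 446 and 343), and in both of d6.

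Lemd2 was higher in replicate 2 in 11 of the 12 groups, by a median log2 ratio of 0.52. The i12 parental line had 49.98 and 99.5 CPM, the widest Lemd2 difference in CPM. Sun1 was also higher in replicate 2 in 11 groups (median 0.32) and Sun2 in 10 (median 0.22), while Tmpo was lower in 11 (median -0.13). With the replicate term the median half-width of the 95% intervals of the clones' changes was 0.31, against 0.57 without it. What the replicate number stands for is not given in the sources used here.

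**Figure D3:**
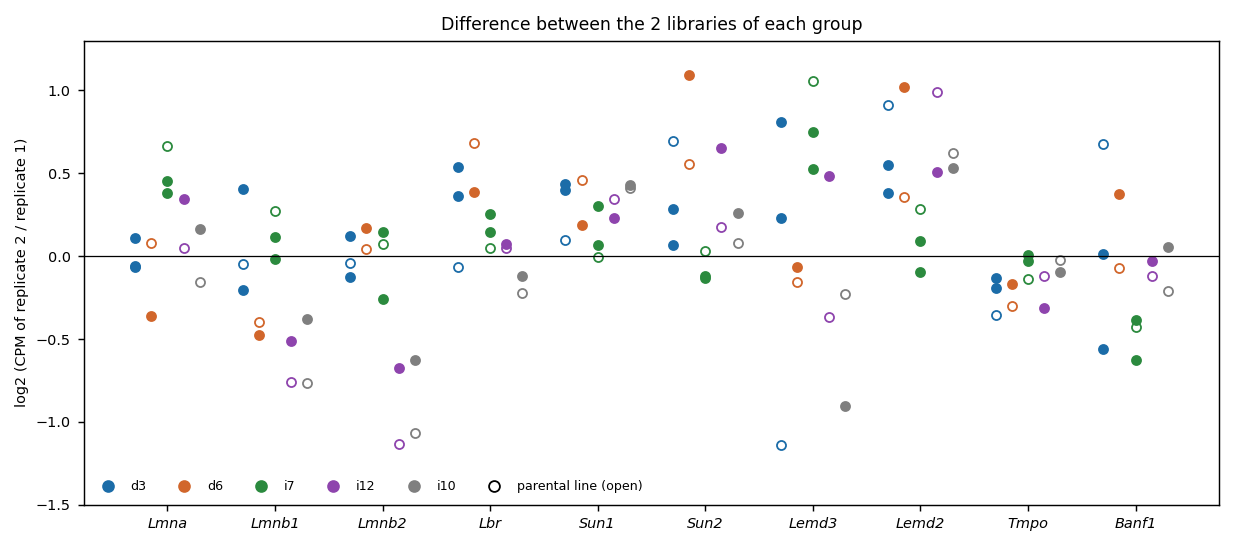
Each point is the log2 ratio of replicate 2 to replicate 1 CPM in 1 group; genes are on the x axis, colours are recombinations and open circles parental lines. All 4 groups of i12 and i10 lie below 0 for Lmnb1 and Lmnb2 and above 0 for Sun1 and Lemd2.

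Across the 24 libraries the log2 CPM of Sun1 rose with that of Lemd2 (Pearson r 0.74), that of Lbr with that of Sun2 (0.60) and that of Lmnb1 with that of Lmnb2 (0.59). Tmpo ran against Sun2 (-0.70) and Lbr (-0.61). The r of Lmna with Lmnb1 was -0.19 and with Lbr 0.32. These values describe libraries that share lines, depth and the replicate differences above. Over 10732 genes that averaged 50 counts or more, the closest pattern to Lmnb1 was that of Ncl, the gene of nucleolin (r 0.98), to Sun1 that of Cdc7 (0.95), to Lbr that of Pde4dip (0.90) and to Lemd2 that of Apobec1 (0.89). Lmnb2 was closest to Ing1 (0.89), Sun2 to Pi4k2a (0.88), Banf1 to Rpl10 (0.88), Tmpo to Dcbld1 (0.86), Lmna to Fhl1 (0.82) and Lemd3 to Clcn3 (0.72).

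The second measurement was the share of each gene's counts that came from the 129S1 allele. Sun1 had the strongest lean to 129S1, with 67.2% to 72.5% in every library, and Lemd2 the strongest to CAST, with a 129S1 share of 32.4% to 41.2%. Lmna leaned to 129S1 with a median of 58.2% (50.2% to 73.3%), as did Lemd3 (58.6%, 46.7% to 72.5%) and Sun2 (56.4%, 48.6% to 64.2%), the 3 genes with the fewest counts. Lmnb1 had a median of 44.8% (41.0% to 46.9%) and Lbr 46.8% (44.5% to 49.7%), on the CAST side in every library. Tmpo had 53.1% (50.1% to 59.5%) and Lmnb2 49.6% (42.2% to 61.6%).

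In the mean of the 5 parental lines, 9 of the 10 genes departed from equal alleles (edgeR's quasi-likelihood test on the ratio of 129S1 to CAST counts), beside 69.2% of the 10795 genes tested. The log2 ratio was 1.20 for Sun1 (SE 0.0303, 2.29-fold, adjusted p = 2.48e-18) and -0.76 for Lemd2 (SE 0.0533, adjusted p = 6.23e-11). It was 0.66 for Lemd3, 0.46 for Sun2, 0.46 for Banf1, 0.44 for Lmna and 0.20 for Tmpo, and -0.31 for Lmnb1 and -0.19 for Lbr. Lmnb2, at -0.05 (SE 0.0579, adjusted p = 0.468), was not called. A lean of this kind also depends on how reads were assigned to the 2 genomes, which was not tested.

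**Figure D4:**
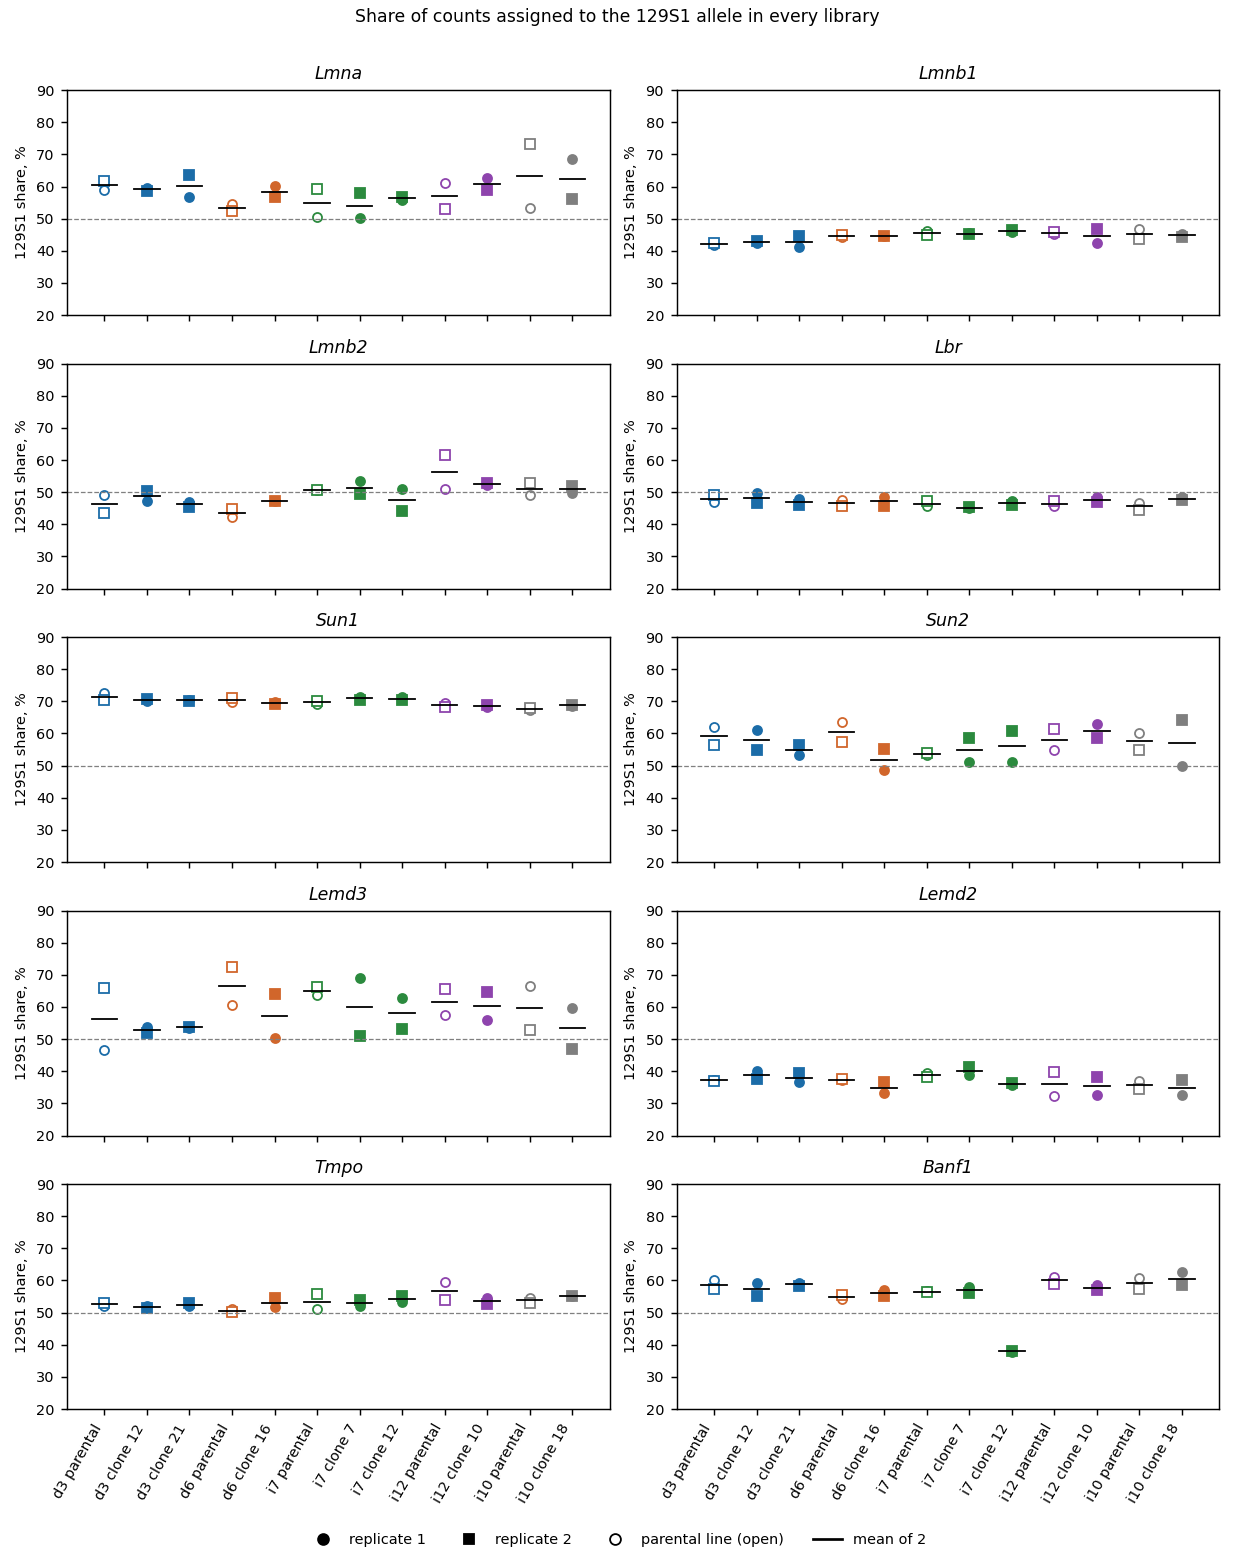
Each panel plots 1 gene, with the 12 groups on the x axis and the percent of its counts assigned to 129S1 on the y axis (20 to 90, dashed line at 50); circles are replicate 1, squares replicate 2, open symbols parental lines and bars the mean of 2 libraries. Banf1 in i7 clone 12, at 37.8% and 38.1%, lies below its other 22 libraries (54.2% to 62.6%).

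The clones were compared with their parental lines by the allelic ratio as well. Of 70 tests of the allelic ratio in a clone against its parental line, 1 was called (edgeR's quasi-likelihood test, adjusted p under 0.05). In i7 clone 12 that was 1 of 10 genes, beside 2.33% of all genes. In the other clones it was 0 of 10, beside 3.41% of all genes in d3 clone 21, 0.0463% in each of d3 clone 12 and d6 clone 16, 0.00926% in each of i7 clone 7 and i12 clone 10 and 0.0% in i10 clone 18. Over all 70 tests 1 had an unadjusted p under 0.05, beside 4.44% of all genes, and DESeq2 was not run on the ratios. The median half-width of the 95% intervals was 0.32 on the log2 scale.

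Banf1 held 37.8% (95% Wilson interval 35.0% to 40.7%) and 38.1% (35.0% to 41.4%) of its counts on 129S1 in i7 clone 12. In the i7 parental line the shares were 56.7% and 56.3%, in i7 clone 7 58.1% and 56.0%, and over the 22 libraries outside the clone 54.2% to 62.6%, with no overlap. The log2 change of the ratio was -1.08 against the parental line (SE 0.117, 2.12-fold, adjusted p = 1.01e-05) and -1.11 against i7 clone 7 (SE 0.116, adjusted p = 1.21e-05). Against clone 7 too, 1 of the 10 genes was called, beside 2.38% of all genes.

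Each allele was then read by itself. The CAST allele of Banf1 stood at 66.1 and 42.5 CPM in i7 clone 12 and at 32.3 and 24.2 CPM in the parental line. The 129S1 allele stood at 40.2 and 26.2 CPM beside 42.3 and 31.2. Counts of 1 allele tested alone changed by 0.95 for CAST (SE 0.259, adjusted p = 0.155) and by -0.12 for 129S1 (SE 0.261), neither called. Both alleles together stood at 106 and 68.7 CPM beside 74.6 and 55.5, a log2 change of 0.43 (SE 0.254, edgeR adjusted p = 0.924) that was not called and whose libraries overlapped.

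Banf1 was then set beside the rest of chromosome 19. Of 382 chromosome 19 genes tested, 225 (58.9%) had their ratio called in i7 clone 12 against the parental line, with a median log2 change of -0.92, and 82 had a lower value than Banf1. The median of the CAST counts alone was 0.88 over 475 chromosome 19 genes, that of the 129S1 counts alone 0.03 over 463, and that of both together 0.50 over 530. On the other 7 chromosomes that hold these genes, the medians in this clone lay between -0.01 and 0.05 for the ratio and between -0.04 and 0.01 for total counts. Eif1ad, the neighbour that overlaps Banf1, changed its ratio by -0.96 (adjusted p = 0.000459). The other 9 genes had ratio changes of -0.51 to 0.14 in this clone and none was called. A smaller shift was seen in i12 clone 10 on chromosome 3, which holds Lmna. There the median was 0.19 for the ratio (0 of 499 genes called) and -0.10 for total counts.

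**Figure D5:**
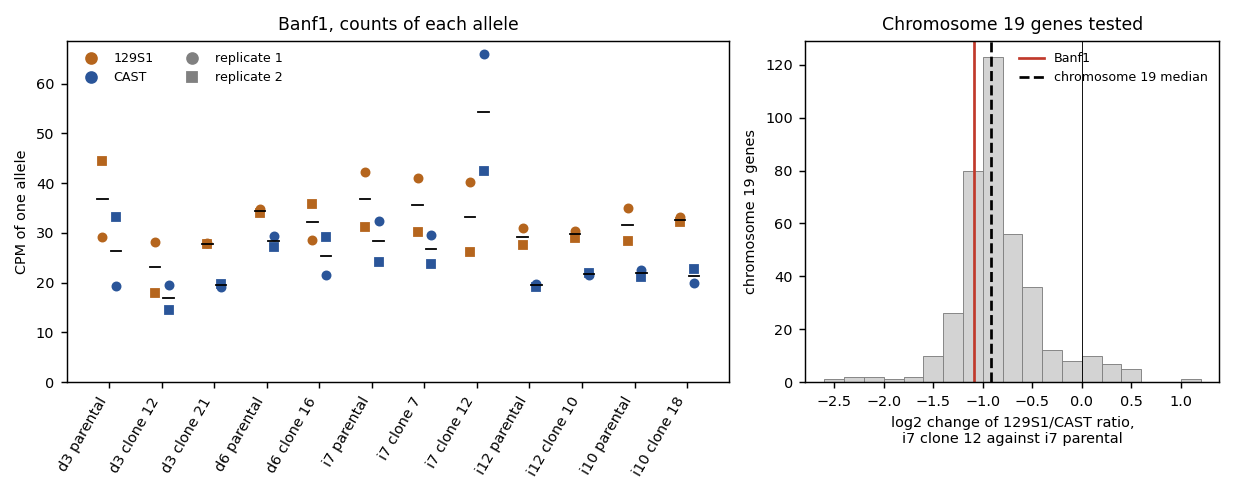
Left, CPM of the 129S1 and CAST alleles of Banf1 (y axis from 0) in the 12 groups, with circles for replicate 1, squares for replicate 2 and bars for means of 2. Right, number of chromosome 19 genes by log2 change of the 129S1 to CAST ratio in i7 clone 12 against the i7 parental line, with Banf1 (red, -1.08) to the left of the chromosome median (dashed, -0.92).

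A list of 53 other envelope genes was set beside these: 6 LEM and BAF partners, 10 genes of the LINC complex and its torsin regulators, 6 of lamin processing, 11 other inner membrane proteins, 7 of the nuclear pore and 13 of peripheral chromatin. Of these, 49 passed the filter on low counts, and Sun3, Nrm, Plpp7 and Prr14 did not. The most abundant per kilobase in each role were Ppp2ca, a phosphatase subunit that acts on the Banf1 protein (28.1 CPM per kilobase), Tor1a (15.9), the farnesyltransferase subunit Fnta (22.6), Tmem120a (18.8), the pore-basket gene Nup50 (36.3) and Cbx3 (45.8), which encodes an HP1 protein. No gene of the list was called on total counts in any of the 7 clones against its parental line (49 genes per clone, edgeR's quasi-likelihood test, also 0 by DESeq2). Beside this, 0.0% to 0.0554% of all genes were called. An unadjusted p under 0.05 was seen in 3 tests, Tm7sf2 in i7 clone 12 among them, beside 2.3% of all tests pooled. The median log2 change of the listed genes in i7 clone 12 was 0.03 and that of the 10 genes 0.06, beside a median within 0.01 of 0 for all genes tested.

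With the replicate term, 2 of the 49 genes were called between the 2 clones of i7, beside 9.76% of all genes. Narf, which encodes a prelamin A binding protein, was 0.53 higher in clone 12 on the log2 scale (SE 0.161, edgeR adjusted p = 0.0482). Lemd1, a LEM-domain gene, stood at 0.580 and 0.833 CPM in clone 12 and at 2.49 and 2.45 in clone 7, a difference of -1.76 (SE 0.406, adjusted p = 0.00811) that rests on 6 and 11 counts in clone 12. Without the term neither was called (adjusted p = 0.725 and 0.217).

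For the allelic ratio, 45 genes of the list were tested and 2 were called in i7 clone 12 against the parental line, beside 2.33% of all genes. Both lie on chromosome 19, where 58.9% of all genes tested were called. Tm7sf2, a sterol reductase of the inner membrane related to the one in Lbr, changed by -1.17 (SE 0.229, edgeR adjusted p = 0.00426) and Rce1, a protease that trims farnesylated prelamins, by -1.12 (SE 0.299, adjusted p = 0.0231). With the replicate term Cbx1, an HP1 gene on chromosome 11, was called too in i7 clone 12 against the parental line (0.79, adjusted p = 0.000746, beside 2.86% of all genes) and in d6 clone 16 (0.65, adjusted p = 0.0278, beside 0.287%), but not between the clones of i7 (0.36, adjusted p = 0.209). Between these clones Fntb, which encodes the other farnesyltransferase subunit, was called with the term (0.52, adjusted p = 0.0445, beside 3.2% of all genes) and not without it (0.52, adjusted p = 0.603). Without the term Cbx1 was not called in i7 clone 12 (0.77, edgeR adjusted p = 0.676) or in d6 clone 16. Its 129S1 shares overlapped in both, with 63.1% and 79.3% in the i7 parental line and 77.1% and 85.0% in i7 clone 12. The 129S1 share of Cbx1 was 81.3% over all libraries, and whether reads of related sequences entered its counts was not tested.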

How the data were processed

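Per the submitters' processing notes, reads were handled with STAR and SAMtools on mm10, with no versions given. The deposited table holds raw counts per gene, 1 column for each allele of each of 24 libraries. Of its identifiers, 48838 matched GENCODE M21 (GRCm38). The 147 that did not held 0.0148% of the counts.

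Counts of both alleles were summed and fitted with edgeR 4.0.16 in R 4.3.3 (TMM, filterByExpr on 12 groups, 16253 genes, quasi-likelihood test, Benjamini-Hochberg over all genes) with a coefficient per group; DESeq2 1.42.0 was an alternative. For the allelic ratio each library had its own coefficient and each group its own allele term, over 10795 genes that averaged 10 or more counts on both alleles. Correlations used log2(CPM + 0.5). The fits were tested on simulated data. Python 3.11.15 and matplotlib 3.10.9 were used for the rest.

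The series' design calls the replicates biological duplicates. If they are not separate cultures, p-values measure only the spread between libraries. Deviations of same-numbered libraries correlated between all 9 pairs of groups of 1 recombination (r 0.36 to 0.69, median 0.55). Between recombinations r was -0.21 to 0.60 (median 0.21, 57 pairs), and in the same range as within them for d3 with d6 and i12 with i10. A fit with the replicate number within each recombination as a block was therefore added.

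Genes named were the 10, other listed envelope genes called in a clone (at most 20), the highest per kilobase in each role and the closest patterns. The 10 genes, the lists and the tests were chosen with earlier results of these data known. The inner membrane list also holds Man1a, a mannosidase gene that is not an envelope gene. Wilson intervals cover counting error only. No protein or promoter sequence is given.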

Additional observations from a re-analysis of the deposited data

Results flagged for a closer look

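For Banf1, and for Lmna in 1 of 2 edgeR fits and by DESeq2, the difference between the 2 clones of i7 passed a test of the difference itself. The allelic ratio of Banf1 differed between i7 clone 12 and i7 clone 7 by -1.11 on the log2 scale, without the replicate block (edgeR's quasi-likelihood test, adjusted p = 1.21e-05) and with it (-1.11, adjusted p = 1.29e-06), and both libraries of clone 12 lay below all 22 other libraries. Of all genes 2.38% were called without the block. The allelic ratio was lower over chromosome 19 in clone 12 against the parental line (225 of 382 genes called, median -0.92, 82 genes lower than Banf1). Total counts of chromosome 19 genes were higher there (median log2 change 0.50). The level of Lmna differed between the same clones by 0.92 with the replicate block (edgeR adjusted p = 0.000831), where 9.76% of all genes were called. Without the block edgeR did not call it (adjusted p = 0.142), while DESeq2, also without the block, did. The edgeR call with the block was lost with clone 7 replicate 2 left out.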

How the results depend on the processing

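The count of genes called against the parental line was 0 of 10 under every alternative run in d3 clone 21, d6 clone 16, i7 clone 7, i12 clone 10 and i10 clone 18, and for the mean over recombinations. With the replicate block it was 1 in i7 clone 12 (Lmna), beside 6.27% of all genes. It was also 1 with the block and relative log expression size factors, no filter or a stricter filter. With the block and no filter it was 1 in d3 clone 12 (Banf1, -0.65, adjusted p = 0.00667). For i7 clone 12 against clone 7 it was 1 with the block, beside 9.76% of all genes. There it was also 1 with the block and other size factors or a stricter filter and by DESeq2, and 3 with the block and no filter. In the joint test of parental lines it was 6 with the block, beside 50% of all genes. It was also 6 under the 3 other settings of the block, and 1 with no filter and no block (Lmnb1, adjusted p = 0.0226). Leaving out 1 library in turn with the block gave 0 to 1 calls in i7 clone 12 against the parental line, 0 to 1 against clone 7 and 4 to 8 in the joint test (5 without d6 parental replicate 1 and 5 without i12 parental replicate 2). Without the block it gave no call in these comparisons. The causes were not tested. Every setting run kept the call of the Banf1 ratio in i7 clone 12 (-1.07 to -1.10). The total change of Banf1 there was 0.43. Counts of 1 allele alone gave -0.12 for 129S1, a reversed sign, and 0.95 for CAST, neither called. Parental allelic leans were called in 8 to 9 genes, beside 69.2% of all genes without the block. For the other settings the share of all genes called is not given here, so those counts cannot be set beside it. The block combined with another setting or with a library left out, and the ratio between the i7 clones, were chosen after seeing the data. The block changed no call on these genes beyond those given. Lemd3, with 29 to 228 counts per library, had the widest intervals.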
